A study of Saccharomyces cerevisiae with 6 samples.

Results

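Glutathione, thioredoxin and old yellow enzyme genes encode the enzymes with which yeast cells keep their thiols reduced and dispose of reactive compounds. The 10 genes described here were chosen by name: OYE2 and OYE3, the glutathione transferase genes GTT1 and GTT2, the glutathione reductase gene GLR1, the synthesis genes GSH1 and GSH2, the thioredoxin genes TRX1 and TRX2 and the thioredoxin reductase gene TRR1. They are 10 of the 5379 genes with a named spot on the array, and each had 1 spot. Of the 10, 9 had a value on all 3 arrays, as 4312 of all genes did, and TRR1 had values on 2.

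The samples were cultures of Saccharomyces cerevisiae strain S288C in YPD, a rich glucose medium, shaken at 25 °C. Treated cultures received zinc pyrithione, a zinc complex used against fungi, at 12.6 µM in exponential growth (OD of 1) and were harvested after 2 h, and untreated cultures grew on for the same 2 h without any addition. Polyadenylated RNA of treated cells carried Cy5 and that of untreated cells Cy3 on each of 3 arrays, from independent biological samples, and both laser powers (high and low) gave a scan per array. The compound was supplied in DMSO and the labels name no solvent for the untreated cultures, so solvent and compound cannot be told apart, nor can dye and treatment, since no array carried the dyes exchanged.

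All values below are log2 ratios of treated over untreated cells. This direction is the likely one, from the dye of each channel, and is not stated with the deposited values: in the other direction each sign would turn. Array values are the mean of both scans, or the single scan present, and tests are limma's, adjusted over all 4312 genes with a threshold of 0.05. The median ratio of those genes was 0.03 and the median SD between arrays 0.27. High-power scans held values for 4472 to 5219 genes and low-power scans for 1692 to 3250, and spot brightness was not analysed here.

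Glutathione is the main small thiol of the yeast cell. It is made from glutamate, cysteine and glycine by the products of GSH1 and GSH2, is joined to reactive compounds by transferases, and is returned from its oxidized to its reduced form by the reductase GLR1 at the expense of NADPH. Thioredoxins are small proteins that reduce disulfide bonds in other proteins, peroxiredoxins among them, and are themselves reduced by thioredoxin reductase, also with NADPH. Old yellow enzymes are flavin-bearing NADPH oxidoreductases that reduce unsaturated aldehydes and ketones. Several of these genes are known targets of Yap1, a transcription factor activated by peroxides and by compounds that react with thiols.

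Of the 9 genes tested, 4 rose in treated cells and 0 fell. They were GTT2, OYE3, GTT1 and TRX2, of which the first 3 rose more than 3-fold. Over all 4312 genes, 8.12% were called higher and 9.6% lower. The median of the 9 was 0.77, against 0.03 for all genes tested. GSH1 and GSH2 lay near 0 on every array, and OYE2, GLR1 and TRX1 had positive means that did not pass the test.

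**Figure D1:**
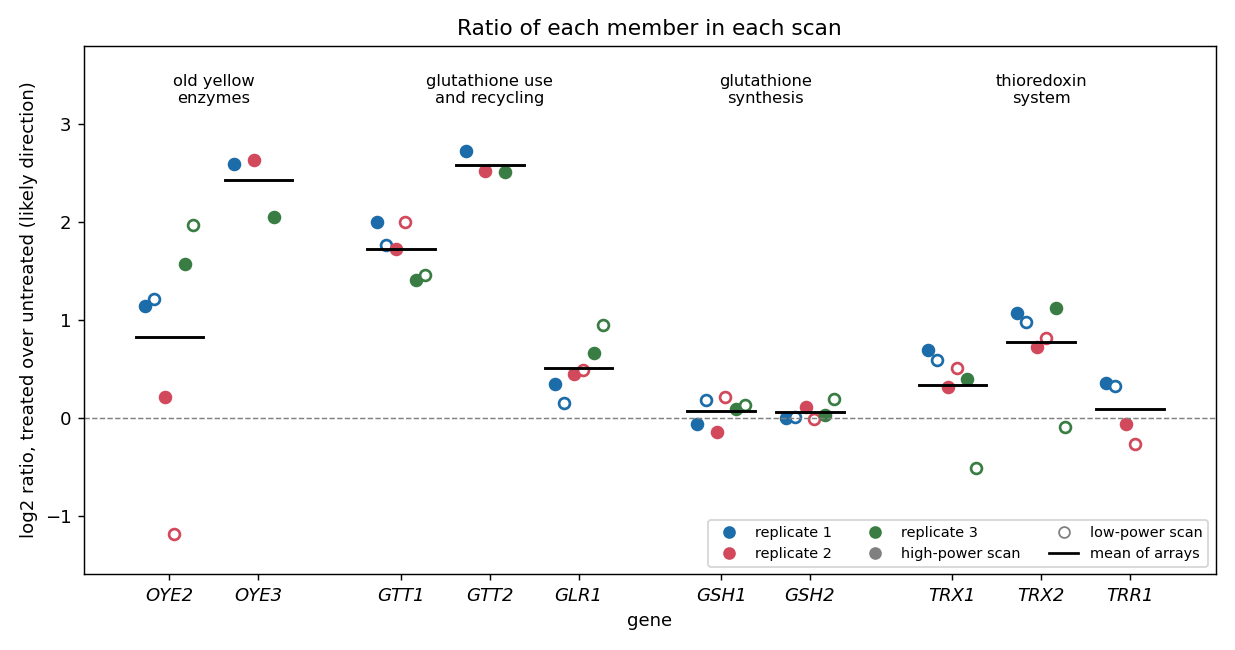
Log2 ratio (vertical axis) of each of the 10 genes (horizontal axis, grouped by role) in each scan, with filled points for high-power scans, open points for low-power scans, a colour per replicate and a black line at the mean of the arrays. GTT2, OYE3 and GTT1 lie above 1.4 in every scan with a value, GSH1 and GSH2 lie within 0.21 of 0, and OYE2 in replicate 2 and TRX1 and TRX2 in replicate 3 show their low-power scan far below the high-power scan.

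Among the genes of glutathione use, GTT2 (YLL060C), a glutathione transferase gene, was highest. Its ratio was 2.72, 2.52 and 2.51 on arrays 1, 2 and 3, all from the high-power scans, because its low-power scans held no value. All 3 arrays lay within 0.21 of each other, and 85.9% of the genes tested had a larger SD. The mean of 2.59 ± 0.12 (SD, n = 3) is a 6.01-fold higher level in treated cells, with a 95% interval of 4.68- to 7.71-fold (limma adjusted p = 0.000151). It ranked 12 from the top of the 4312 genes.

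GTT1 (YIR038C) encodes the other transferase, an enzyme associated with the endoplasmic reticulum. Its ratio was 1.88, 1.86 and 1.44 on the 3 arrays, and its 6 scans all lay between 1.41 and 2.00. The mean of 1.73 ± 0.25 (SD, n = 3) is 3.31-fold, with a 95% interval of 2.52- to 4.35-fold (limma adjusted p = 0.000735), and the gene ranked 36. It was the sole member past the threshold in the low-power scans alone, at 1.74 (limma adjusted p = 0.00623), where GTT2 and OYE3 had no value. GTT2 exceeded GTT1 on every array, by 0.84, 0.66 and 1.08. The mean difference was 0.86 ± 0.21 (SD, n = 3; exact two-sided sign-flip permutation p = 0.25, which is the smallest that 3 arrays allow).

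GLR1 (YPL091W), the glutathione reductase gene, had ratios of 0.25, 0.47 and 0.80. All 6 of its scans were positive, from 0.15 to 0.95, and none reached the lowest scan of GTT1. Its mean of 0.50 ± 0.28 (SD, n = 3) corresponds to 1.42-fold, with a 95% interval of 1.07- to 1.87-fold before adjustment, and was not past the threshold (limma adjusted p = 0.0813). With the high-power scans alone it passed, at a mean of 0.48 (limma adjusted p = 0.0431).

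The genes of glutathione synthesis stood near 0. GSH1 (YJL101C) encodes gamma-glutamylcysteine synthetase, the enzyme of the committed step, and had ratios of 0.060, 0.031 and 0.11. GSH2 (YOL049W), the glutathione synthetase gene, had 0.0017, 0.051 and 0.11. Their spread between arrays was small with scans averaged: 98% of genes tested had a larger SD than GSH1 and 96.5% a larger SD than GSH2. Both genes had 2 scans on every array, as 1372 of the 4312 genes did, so this ranking compares unlike averages. On arrays 1 and 2, GSH1 lay below 0 in the high-power scan (-0.065 and -0.15) and above 0 in the low-power scan (0.19 and 0.21). The mean of GSH1 was 0.068 ± 0.042 (SD, n = 3), with a 95% interval of 0.822- to 1.34-fold (limma adjusted p = 0.777), and that of GSH2 was 0.054 ± 0.054 (SD, n = 3), with an interval of 0.814- to 1.32-fold (limma adjusted p = 0.825). Both intervals thus held small shifts in either direction. In single scans GSH1 ran from -0.15 to 0.21 and GSH2 from -0.0092 to 0.19. GSH2 minus GSH1 was -0.058, 0.021 and -0.0030 on the 3 arrays, with a mean of -0.014 ± 0.041 (SD, n = 3; exact two-sided sign-flip permutation p = 0.75).

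In the thioredoxin system, TRX2 (YGR209C) was the gene that passed the test. Its ratio was 1.02, 0.77 and 0.52 on the 3 arrays, with a mean of 0.77 ± 0.25 (SD, n = 3), or 1.71-fold with a 95% interval of 1.30- to 2.24-fold (limma adjusted p = 0.0208). Without replicate 1 or replicate 2 the call ended (limma adjusted p = 0.138 and 0.0919), as it did when just the low-power scans were used (0.191). TRX1 (YLR043C), which encodes the other cytosolic thioredoxin, had 0.64, 0.41 and -0.058, a mean of 0.33 ± 0.35 (SD, n = 3) that was not past the threshold (limma adjusted p = 0.246).

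TRX2 exceeded TRX1 on each array, by 0.39, 0.36 and 0.57, with a mean difference of 0.44 ± 0.12 (SD, n = 3; exact two-sided sign-flip permutation p = 0.25). This difference varied less between arrays than either gene did. Both genes are of closely related sequence, so a cDNA spot may bind both transcripts; the part of such binding was not tested. TRR1 (YDR353W), the gene of the reductase that serves both, had 0.34 on array 1 and -0.17 on array 2 and no value on array 3, and its scans agreed in sign within each array. With genes on at least 2 arrays admitted to the fit, its mean of 0.085 was not past the threshold (limma adjusted p = 0.827).

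The old yellow enzyme genes differed in how steady they were. OYE3 (YPL171C) had ratios of 2.59, 2.64 and 2.05, all from high-power scans, and none lower than the highest scan of OYE2. Its mean of 2.43 ± 0.33 (SD, n = 3) is a 5.38-fold higher level in treated cells, with a 95% interval of 4.02- to 7.19-fold (limma adjusted p = 0.00025), and it ranked 13, next to GTT2. OYE2 (YHR179W) had 1.18, -0.49 and 1.77, so array 2 lay below 0 while both others lay clearly above. Its SD of 1.17 was the 22nd largest of the 4312 genes. Its mean of 0.82 was not past the threshold (95% interval 0.946- to 3.30-fold; limma adjusted p = 0.176).

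The low value of OYE2 on array 2 came chiefly from its low-power scan, at -1.19, against 0.22 in the high-power scan of that array. With the high-power scans alone, OYE2 passed the test at a mean of 0.98 (limma adjusted p = 0.0244), and without replicate 2 it did so at 1.47 (limma adjusted p = 0.0149). Even in the high-power scans, array 2 was the lowest of the 3, with 1.14 and 1.57 on arrays 1 and 3. OYE3 minus OYE2 was 1.41, 3.12 and 0.28, a mean of 1.61 ± 1.43 (SD, n = 3; exact two-sided sign-flip permutation p = 0.25). Over the 4 such pairs of one role, unadjusted exact two-sided sign-flip permutation p-values lay between 0.25 and 0.75. OYE2 and OYE3 too are closely related in sequence, and binding of both transcripts to a spot was not tested.

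Some of the spread in these genes thus lay between the scans of an array. On array 2, OYE2 had a high-power ratio above its low-power ratio by 1.40, and 1.24% of the 1691 genes with both scans differed by more. On array 3, TRX2 had 1.12 at high power and -0.090 at low power, a gap exceeded by 0.622% of 3213 genes, and TRX1 had 0.40 and -0.52, a gap exceeded by 3.33%. All other gaps of the members were at most 0.40 in size. Large gaps ran one way across the array as well: high-power ratios exceeded low-power ratios by more than 2-fold in 46, 54 and 74 genes on arrays 1, 2 and 3, and the reverse held in 0, 0 and 1. What set these spots apart was not tested. A limma test of the scan difference over the 1372 genes with both scans on all arrays called 0 genes (0% of those tested), with 46 at an unadjusted p under 0.05; the 7 members in it had adjusted p-values from 0.838 to 0.985. That test takes the mean gap over the 3 arrays, so it cannot decide on a gap seen on 1 array, as in OYE2, TRX1 and TRX2.

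**Figure D2:**
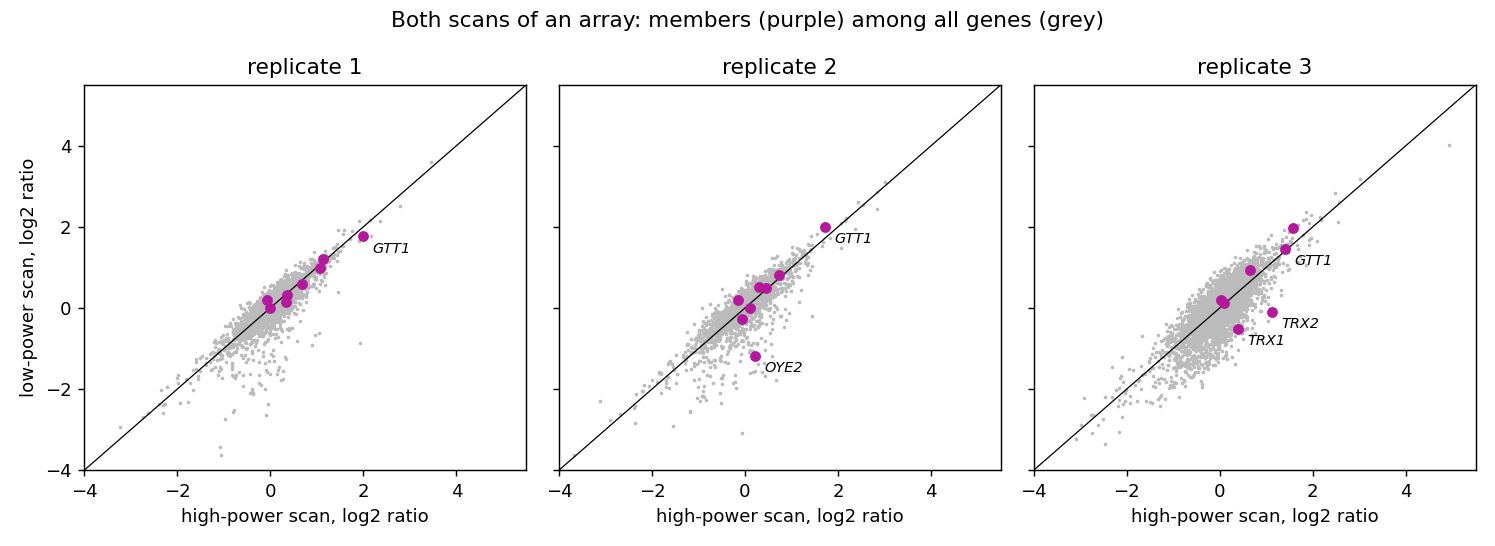
Low-power against high-power log2 ratio of every gene with both scans (grey) and of the members (purple), a panel per replicate, with a line of equal values. Nearly all points far from the line lie below it, among them OYE2 in replicate 2 and TRX1 and TRX2 in replicate 3, while GTT1 stays near the line in all 3 panels.

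Roles were compared by averaging their genes on each array. Genes of glutathione use and recycling (GTT1, GTT2 and GLR1) averaged 1.62, 1.62 and 1.58 on the 3 arrays. Old yellow enzyme genes averaged 1.88, 1.08 and 1.91. The thioredoxin genes on all arrays, TRX1 and TRX2, averaged 0.83, 0.59 and 0.23, and the synthesis genes 0.031, 0.041 and 0.11.

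The order use above thioredoxin above synthesis thus held on each of the 3 arrays when scans were averaged. It did not hold in every scan. In the low-power scan of array 3, TRX1 (-0.52) and TRX2 (-0.090) lay below GSH1 (0.13) and GSH2 (0.19). Use minus synthesis was 1.55 ± 0.06 (SD, n = 3), use minus thioredoxin 1.06 ± 0.28 and thioredoxin minus synthesis 0.49 ± 0.35, the last of which shrank to 0.12 on array 3. These values mix scans, since GTT2 had high-power scans alone and the thioredoxin and synthesis genes had both. In the high-power scans alone, the same differences were 1.59, 0.87 and 0.72. Thioredoxin minus synthesis was 0.26 in the low-power scans alone. With TRR1 counted on the arrays where it had a value, thioredoxin minus synthesis was 0.35. Old yellow enzymes and glutathione use could not be ordered, with a mean difference of 0.017 ± 0.48 and a negative one on array 2. Because the genes were chosen with earlier results known, these group values carry no test. The steady mean of the use group hid a wide range among its genes, from 0.50 for GLR1 to 2.59 for GTT2. It also hid opposite shifts between arrays 1 and 3, from 1.88 to 1.44 for GTT1 and from 0.25 to 0.80 for GLR1. The small SD of the group thus does not describe its single genes, and GLR1 lay below TRX2 on arrays 1 and 2.

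**Figure D3:**
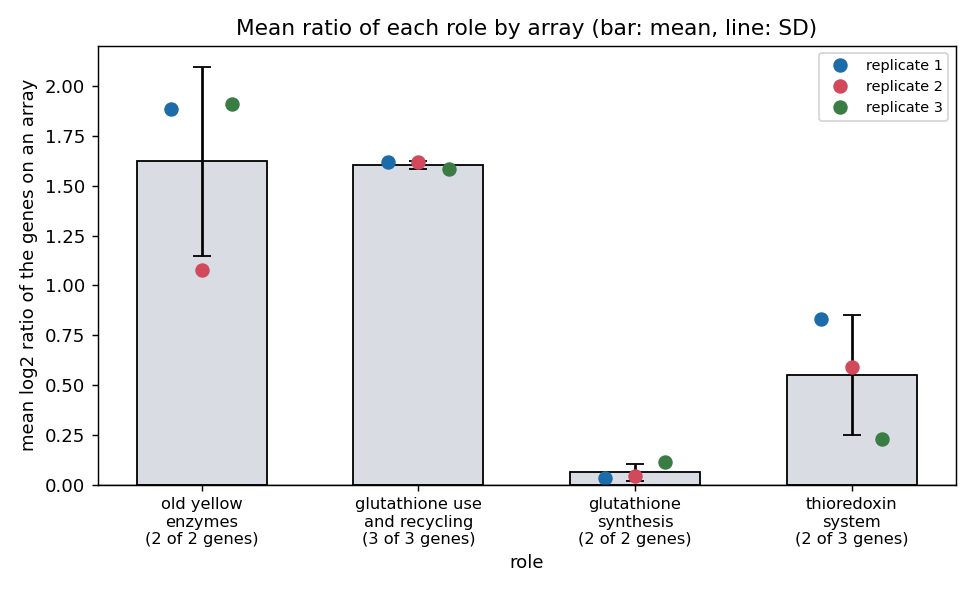
Mean log2 ratio (vertical axis) of the genes of each role (horizontal axis) on each array (points), with the mean of the arrays as a bar and the SD as a line. Glutathione use and recycling lies at 1.58 to 1.62, synthesis at 0.031 to 0.11, and the thioredoxin genes lie between them at 0.23 to 0.83.

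Ordered by their means, the genes ran GTT2, OYE3, GTT1, OYE2, TRX2, GLR1, TRX1, TRR1, GSH1 and GSH2. Of the 9 neighbouring pairs in this order, only OYE3 and GTT1 had array values that did not overlap, with a gap of 0.70. GTT2 and OYE3 differed by 0.16, with GTT2 higher on 2 of 3 arrays. Below GTT1, the neighbours were not separated beyond their spread. Among all genes, 0.255% had a higher mean than GTT2, 0.812% than GTT1, 5.03% than OYE2, 5.59% than TRX2, 12.4% than GLR1 and 22.4% than TRX1, while GSH1 and GSH2 stood mid-range, with 46% and 47.2% above them.

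**Figure D4:**
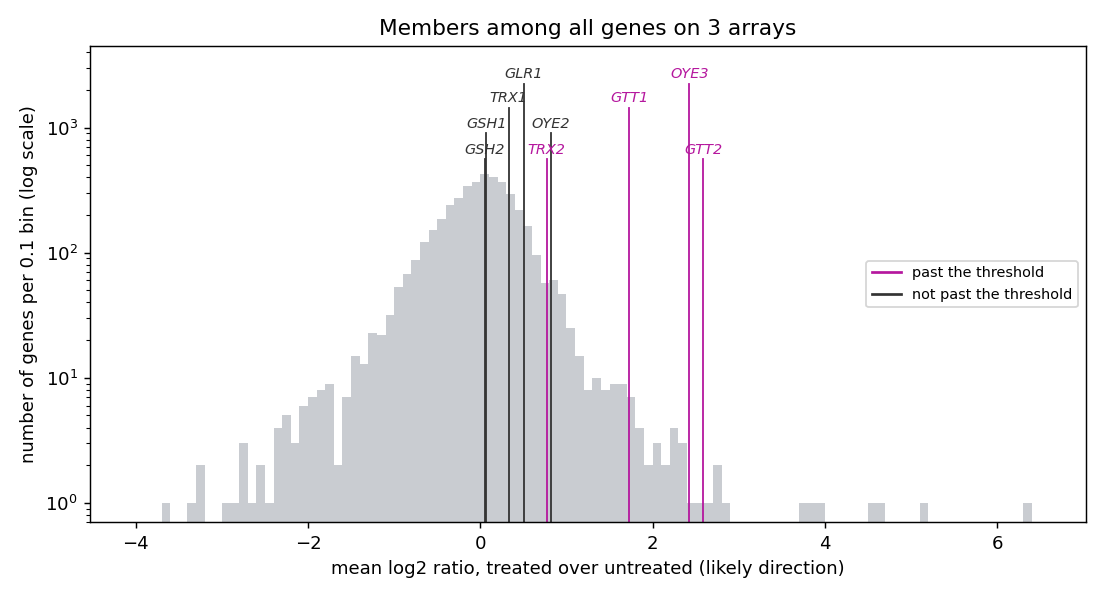
Number of genes (vertical axis, log scale) by mean log2 ratio over 3 arrays (horizontal axis) for all 4312 genes tested, with a line at each of the 9 members tested. GTT1, OYE3 and GTT2 lie in the sparse right tail at 1.73 to 2.59, and GSH1 and GSH2 at the peak.

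The genes with a pattern most like that of GTT2 over the 3 arrays, by root mean square distance of the log2 ratios, were HUG1 (distance 0.20), HSP26 (0.33) and FMP23 (0.33). HUG1 is a small DNA damage-induced gene and HSP26 a small heat shock protein gene. HUG1 stood at 2.53, 2.81 and 2.56, HSP26 at 2.72, 2.08 and 2.16, and FMP23 at 2.21, 2.39 and 2.31. With 3 arrays, such likeness mostly reflects a similar mean.

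A further 73 genes, of the same and adjoining pathways, of other Yap1 targets and of regulators, were set out in 11 lists. Of these genes, 70 had a named spot and 56 were tested. Of the 56, 17 rose and 3 fell, or 35.7%, against 17.7% of all genes called in either direction, and their median was 0.43. By list, the share called was 85.7% for the Yap1 targets, 66.7% for cysteine supply and 57.1% for genes that draw on thioredoxin. It was 50% for the further transferases and 40% each for glutaredoxins and aldehyde removal. The regulators (25%) and NADPH supply (20%) lay near the share over all genes, and 0% was called in the remaining lists. Each list held few tested genes. The counts describe lists that were drawn up with earlier results of these data known.

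All 4 measured further transferase genes were positive (median 0.85), and 2 rose: ECM4, at 1.76, 1.59 and 1.98 (mean 1.78 ± 0.19; limma adjusted p = 0.000561), and GTO3, at 1.22, 0.93 and 1.05 (mean 1.07 ± 0.15; limma adjusted p = 0.00471), both of the omega class. In glutathione-dependent aldehyde removal, 2 of 5 rose (median 0.29). These were SFA1, the formaldehyde dehydrogenase gene (0.75 ± 0.15; limma adjusted p = 0.0177), and YJL068C, the gene of the hydrolase of the next step (0.84 ± 0.10; limma adjusted p = 0.0105), while the glyoxalase genes GLO1, GLO2 and GLO4 stood at -0.32, 0.20 and 0.29. The SFA1 call ended when any of the 3 replicates was left out and with just the low-power scans, and that of YJL068C without replicate 1 or 2.

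Of 6 tested genes of glutathione transport and breakdown, 0 passed in either direction (median 0.26). ECM38, the gamma-glutamyltranspeptidase gene that starts glutathione breakdown, had 0.59 ± 0.27 (limma adjusted p = 0.052, and 0.00582 in the high-power scans alone), and BPT1, a vacuolar transporter gene, -0.31 ± 0.72 (limma adjusted p = 0.439). The glutathione peroxidase list had 0 of 3 past the threshold (median -0.11), with HYR1 at 0.53 ± 0.19 (limma adjusted p = 0.0569, and 0.0416 in the high-power scans alone) and GPX2 at -0.40 ± 0.31 (limma adjusted p = 0.158).

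The glutaredoxin genes, whose products use glutathione to reduce disulfides or to carry iron-sulfur clusters, went in both directions. Of 5 tested, GRX1 rose (0.91 ± 0.16; limma adjusted p = 0.00911) and GRX5, of mitochondrial iron-sulfur cluster assembly, fell to -1.82 ± 0.31 (limma adjusted p = 0.000715), with a list median of 0.45. The GRX1 call ended without replicate 1.

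Genes that draw on thioredoxin were split as well. Of 7 tested, 3 rose and 1 fell (median 0.56). The peroxiredoxin genes AHP1 (0.87 ± 0.35; limma adjusted p = 0.0182), TSA2 (0.79 ± 0.19; 0.0159) and DOT5 (0.72 ± 0.42; 0.0447) rose, whereas TSA1, the abundant cytosolic peroxiredoxin gene, fell to -2.11 ± 0.43 (limma adjusted p = 0.000649). The calls of AHP1, TSA2 and DOT5 ended without replicate 1 or replicate 2, and that of DOT5 also with scans centred on their median (limma adjusted p = 0.0504) or with genes on at least 2 arrays (0.0522). The mitochondrial thioredoxin genes TRX3 (0.19 ± 0.34) and TRR2 (0.44 ± 0.19) were not past the threshold (limma adjusted p = 0.505 and 0.0964).

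Supply of cysteine, from which glutathione is made, was covered by 3 tested genes, and supply of NADPH, which both reductases use, by 10. In cysteine supply, 2 rose: MET17, which fixes sulfide into homocysteine, at 2.65, 2.65 and 3.10 (limma adjusted p = 0.000157), and CYS3, the cystathionine gamma-lyase gene, at 0.87 ± 0.14 (limma adjusted p = 0.0102). CYS4 of the step before CYS3 had 0.86, 0.78 and -0.063 and did not pass (limma adjusted p = 0.132). In NADPH supply, 2 rose and 0 fell (median 0.35, with 20% called against 17.7% of all genes): GND2, at 2.42, 2.12 and 2.23 (limma adjusted p = 0.000198), and GND1, at 0.79 ± 0.07 (limma adjusted p = 0.0133), both encoding 6-phosphogluconate dehydrogenase. ZWF1, the gene of the dehydrogenase that starts the same pathway, had 0.46 ± 0.58 (limma adjusted p = 0.201). The calls of CYS3 and GND1 ended without replicate 1 or replicate 2.

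Of the Yap1 targets outside the 10 genes, 7 were tested, of which 5 rose and 1 fell (median 0.87), the last being TSA1. ATR1 and FLR1, drug efflux genes, stood at 1.57 ± 0.12 (limma adjusted p = 0.000755) and 0.96 ± 0.30 (0.0106). GRE2, a methylglyoxal reductase gene, had 0.53 on array 1, against 2.53 and 2.33 on arrays 2 and 3 (limma adjusted p = 0.0163), and its call ended without replicate 2 or 3 and with just the low-power scans. Its mean was 2.30 in the high-power scans alone (limma adjusted p = 9.81e-05) and 1.30 in the low-power scans alone (limma adjusted p = 0.215). The FLR1 call ended without replicate 2. Among 8 tested regulators (median 0.11), CAD1, a close relative of YAP1, rose (1.22 ± 0.39; limma adjusted p = 0.00622), and SKN7, whose product acts with Yap1 in the peroxide response, fell to -1.37 ± 0.70 (limma adjusted p = 0.0131). YAP1 itself had 0.33, 0.87 and 0.58 (limma adjusted p = 0.0523).

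**Figure D5:**
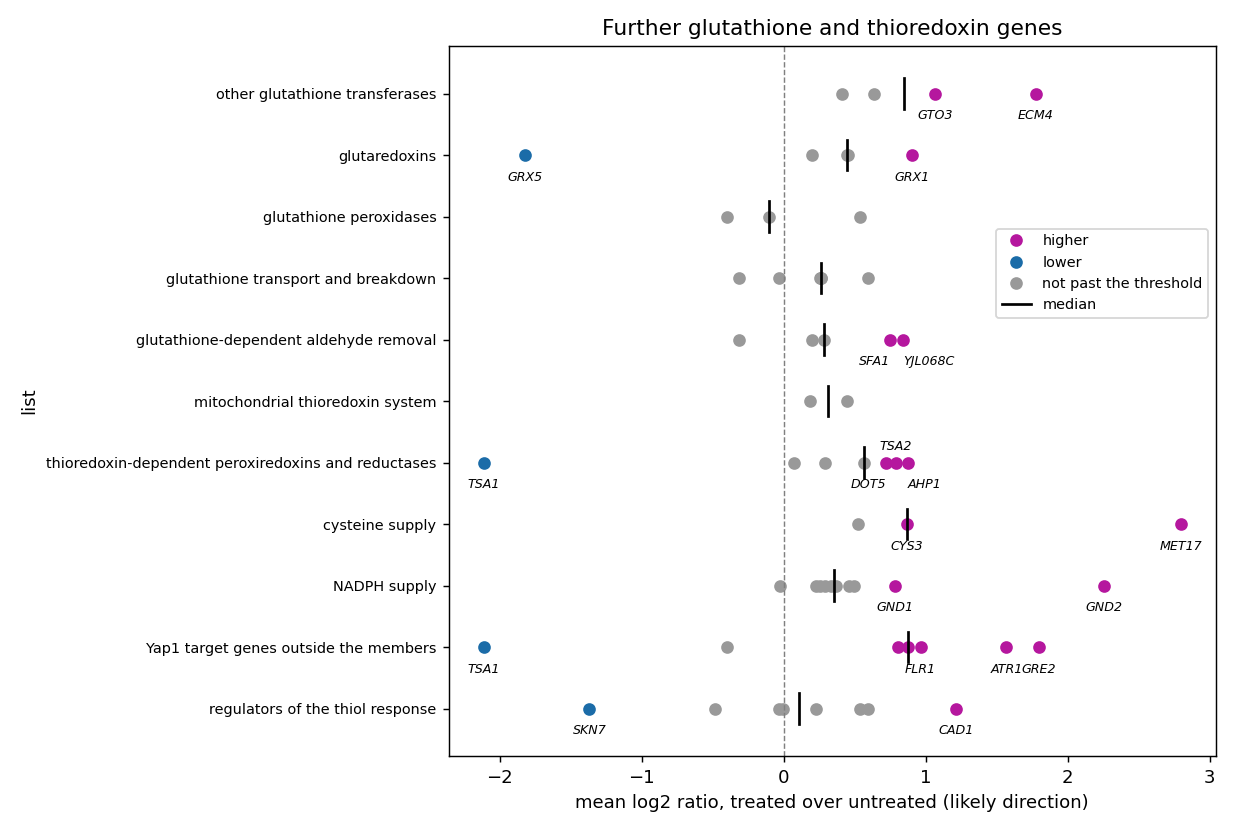
Mean log2 ratio over 3 arrays (horizontal axis) of each tested gene of the 11 further lists (vertical axis), coloured by whether it passed the test as higher or lower, with a black line at the median of each list. Positive values prevail in all lists except the glutathione peroxidases and the regulators, and GRX5, TSA1 and SKN7 lie far below 0.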

How the data were processed

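The deposited values are log2 ratios of both dyes, 1 column per scan of 6. Per the labels, unflagged spots were used for the authors' LOWESS normalization, which sets the average ratio near 0. The base was read from the lowest value, -6.64, the log2 of 0.01. GeneSpring is named in the labels for merging scans; the merged values were not used here. The platform annotation gave 5446 of 6912 spots a gene, and all of these matched RefSeq (R64), used for names alone. There were 0 unused sample columns.

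Scans were averaged per array, and genes on all 3 arrays were tested against 0 with limma 3.58.1 (R 4.3.3; lmFit, eBayes, Benjamini-Hochberg). Intervals are moderated and unadjusted. The number of arrays limits the precision. The procedure was tested on simulated data. Figures used matplotlib 3.10.9. Members and lists were chosen with earlier results of these data known. Named were all members, up to 4 genes past the threshold per list, those farthest from 0, or up to 2 as values where none passed. CYS4, ZWF1, YAP1, GRX3, GLO1, GLO2 and GLO4 were added after their values were seen. No replicate pairing was tested, since each ratio already pairs both cultures of an array.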

Additional observations from a re-analysis of the deposited data

How the results depend on the processing

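Among the members, GTT1, GTT2 and OYE3 kept direction and call under each alternative that gave them a value. The members called higher numbered 6 in the high-power scans alone, 1 in the low-power scans alone and 2 where both scans of all arrays were required, where GTT2 and OYE3 have no low-power values, and 3 to 4 with a replicate left out. Over all genes, 515 were called higher and 570 lower in the high-power scans alone (4252 genes tested), 74 were called higher and 77 lower in the low-power scans alone (1429 genes tested), and 175 higher and 182 lower with both scans required (1372 genes). With a replicate left out the counts were 132 to 279 higher and 179 to 318 lower. The mean of GSH1 was -0.040 in the high-power scans alone, and that of GSH2 -0.076 with each of 8 sets of spots centred, an alternative added after the data were seen. GSH2 minus GSH1 was 0.084 in the high-power scans alone and ran from -0.031 to 0.0089 with a replicate left out. With a replicate left out, BPT1 ran from -0.60 to 0.093 (without replicate 3) and TRX3 from -0.0085 (without replicate 1) to 0.29. The cause of these shifts was not tested. Of 412 single-gene values under alternatives, 374 kept direction and side of the threshold, 26 lost a call, 8 gained one and 4 changed sign. Each ratio pairs both cultures of an array, so every test was paired and no further replicate block was fitted.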

Other observations

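Of the genes in the further lists, 11 had values on 2 arrays and were not part of the main test. Among them 3 lay far from 0 and are named after their values were seen. FRM2, which encodes a nitroreductase-like protein, stood at 3.71 and 3.72 on arrays 1 and 2, 13.1-fold higher in treated cells. CCP1, the gene of the heme-bearing cytochrome c peroxidase, stood at -2.87 and -3.15, 8.05-fold lower. GRX4, a gene of a cytosolic and nuclear glutaredoxin that carries iron-sulfur clusters, stood at -2.60 and -2.40, 5.64-fold lower, while its relative GRX3 had 0.59, 0.47 and 0.28 on the 3 arrays (limma adjusted p = 0.0881). With genes on at least 2 arrays admitted, FRM2, CCP1 and GRX4 had limma adjusted p-values of 0.00024, 0.000491 and 0.000841.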
